A study of Homo sapiens with 24 samples.

Results

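The loss of ERH was examined in cytoplasmic RNA of RKO cells that had received only the solvent DMSO, in 3 sgERH libraries against 3 sgAAVS1 libraries. These 6 libraries were taken from the 24 of the series by their labelled guide, fraction and treatment, and no measured value was used in the choice. RKO is a human colon carcinoma line, and the cells used were a single-cell-derived clone with doxycycline-inducible Cas9. Each group was a pool of sorted cells with a stably expressed guide, against ERH or against the neutral safe-harbour locus AAVS1, and both groups had been given doxycycline at 100 ng/mL for 5 days and DMSO for 4 h. The cytoplasm was released from the nuclei by mild lysis with the detergent NP-40, polyadenylated RNA was sequenced from both ends, and the other libraries of the series were nuclear RNA or had been treated with the translation inhibitor cycloheximide (CHX). The labels call the 3 libraries of a group biological replicates without linking them to separate editing events, so p-values measure the spread between these libraries.

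ERH is a small, highly conserved nuclear protein that associates with RNA processing and mRNA export factors. Introns are removed from pre-mRNA in the nucleus, and polyadenylated RNA that still holds an intron is usually kept there. If it does reach the cytoplasm, a stop codon inside the intron can make it a substrate of nonsense-mediated decay (NMD), which destroys mRNAs during translation. Cytoplasmic RNA can therefore show the loss of an mRNA, the gain of an altered isoform, and the presence of an intron as 3 separate measurements. In bulk libraries, fewer cells that express a gene and less RNA per cell cannot be told apart.

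The introns that appeared in the cytoplasm of sgERH cells are introduced first by their splice sites, because the report turns on them. Of the 15 clean introns (overlapping no annotated exon) with the largest increase, 6 are printed from GRCh38, 5′ to 3′ on the transcribed strand. Each donor shows 3 exon bases and 10 intron bases, each acceptor 20 intron bases and 3 exon bases, and capitals mark the first 2 and the last 2 bases of the intron. They come from BPTF (a chromatin remodelling subunit), USP9X (a deubiquitinase), ASPM (a spindle pole protein), TRPM7 (an ion channel with a kinase domain), CHD1 (a chromatin remodeller) and PIK3C2A (a lipid kinase of endocytosis).
BPTF intron 9 donor, chr17:67904838-67904850, plus strand: gaaGTaagtaatt
BPTF intron 9 acceptor, chr17:67909562-67909584, plus strand: cgttacatggttctttttAGcca
USP9X intron 19 donor, chrX:41170233-41170245, plus strand: tcgGTatgtatgt
USP9X intron 19 acceptor, chrX:41170450-41170472, plus strand: acatagtatataattttcAGctt
ASPM intron 14 donor, chr1:197122378-197122390, minus strand: atgGTtagtccct
ASPM intron 14 acceptor, chr1:197122299-197122321, minus strand: cctttcctcctgcataatAGaaa
TRPM7 intron 19 donor, chr15:50609571-50609583, minus strand: acgGTatgttttt
TRPM7 intron 19 acceptor, chr15:50607326-50607348, minus strand: aacctttactttttcattAGttg
CHD1 intron 12 donor, chr5:98896216-98896228, minus strand: atgGTaagttgtt
CHD1 intron 12 acceptor, chr5:98894684-98894706, minus strand: tccttcaaatttcttaatAGata
PIK3C2A intron 14 donor, chr11:17122692-17122704, minus strand: cagGTaatggtac
PIK3C2A intron 14 acceptor, chr11:17122331-17122353, minus strand: atttctgttaaattttaaAGgtt
All 6 have the common GT and AG ends. Their retention in each library is given with the introns.

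The libraries held 60.7 to 79.5 M expected counts in sgAAVS1 and 43.98 to 60.5 M in sgERH. Mitochondrially encoded mRNA took 3.62 to 4.12% of the counts in sgAAVS1 and 5.66 to 6.84% in sgERH. With the mitochondrially encoded genes left out, 1577 genes were called higher and 306 lower, against 1500 and 349 with them. Of 14 colon epithelial markers, given in CPM without scaling of the library sizes, KRT18 (178 and 128 CPM in sgAAVS1 and sgERH), KRT8 (21.8 and 24.1 CPM), CDX2 (13.6 and 18.2 CPM) and EPCAM (3.55 and 10.4 CPM) were expressed, CDX1, CEACAM5 and KRT20 had no count, and the other 7 were at or below 0.0954 CPM. The summed level of the 14 markers was 208 to 230 CPM in sgAAVS1 and 176 to 186 CPM in sgERH. The 8 fibroblast markers summed to 0.0126 to 0.0330 and 0.116 to 0.2501 CPM, with DCN, LUM, THY1 and COL3A1 at no count. Of 8 leukocyte markers, the lysosomal protein CD68, which other cell types also express, made up nearly all of the 272 to 310 and 373 to 395 CPM, while CD3E had no count and PTPRC had 2 counts in all 6 libraries.

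ERH itself was lower. Its level was 137, 158 and 152 CPM (counts per M reads, with library sizes scaled by the trimmed mean of M-values) in the sgAAVS1 libraries and 72.9, 86.9 and 59.4 CPM in sgERH. The groups did not overlap, and the level was 2.04-fold lower (log2 fold change −1.03, SE 0.114, adjusted p = 1.12e-06, edgeR quasi-likelihood test with Benjamini-Hochberg adjustment). An mRNA can persist after Cas9 has disrupted its reading frame, so this is a check of the labels and no measure of the protein. In 3 of 13 alternative analyses the fold change fell short of 2.

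A gene was called when its adjusted p was at most 0.05 and its log2 fold change at least 1 in either direction. In sgERH 9.30% of the 16130 genes in the test were called higher, 2.16% were called lower and 11.5% either way. The genes called higher were mostly scarce. Their median level went from 0.291 to 0.931 CPM, 79.5% of them stayed under 5 CPM in both groups, and 308 of the 1500 had at least 5 CPM in at least 1 group. The genes called lower were well expressed, with a median of 26.8 CPM in sgAAVS1 and 11.1 CPM in sgERH, and 237 of the 349 had at least 5 CPM in at least 1 group. The genes called higher summed to 5220 CPM in sgAAVS1 and 13213 CPM in sgERH, while those called lower went from 28347 to 12331 CPM. Changes of at least 4-fold were found in 556 genes called higher and 24 called lower. For 61.2% of all tested genes, called or not, the 3 values of one group lay wholly above the 3 of the other.

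**Figure D1:**
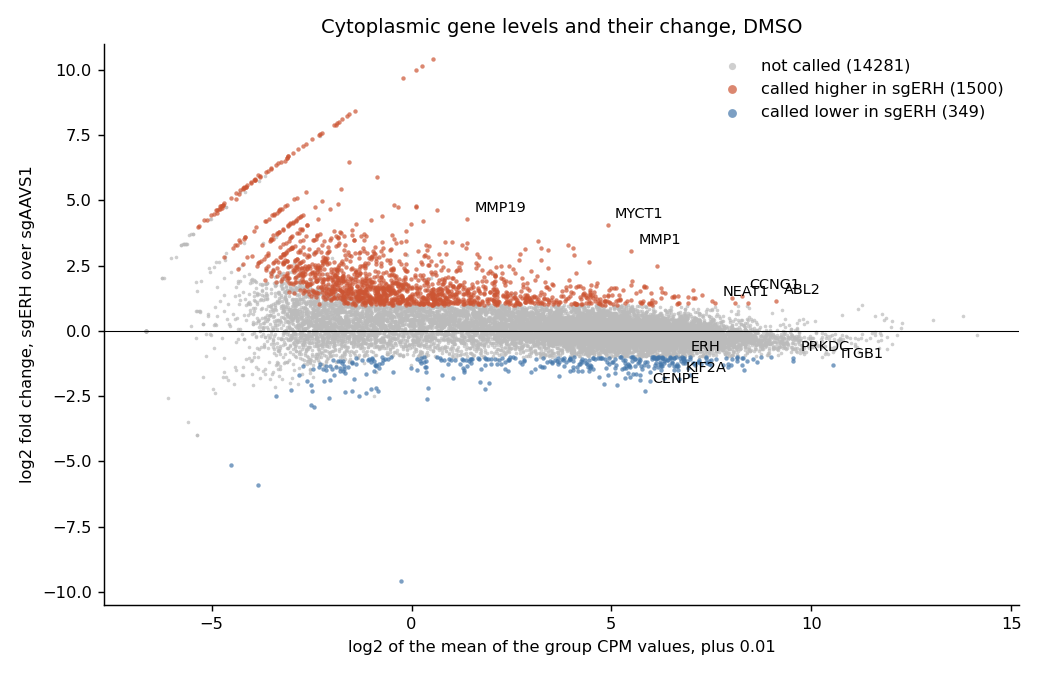
Each point is a gene, with the log2 of its mean level (CPM plus 0.01) on the horizontal axis and the log2 fold change of sgERH over sgAAVS1 on the vertical axis. Genes called higher (1500) lie mostly at low levels and genes called lower (349) mostly at high levels, and the straight streak at the upper left holds genes with no count in sgAAVS1, whose fitted fold change is no measure of size.

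Genes for cell division and DNA copying led the genes called lower. CENPE, a kinesin that moves chromosomes to the spindle equator, was at 107, 100.7 and 78.8 CPM in sgAAVS1 and 22.8, 18.6 and 17.01 CPM in sgERH, 4.89-fold lower. KIF2A, a kinesin that takes microtubules apart, was at 158, 163 and 161 CPM against 44.8, 43.9 and 45.3 CPM. The difference was 3.60-fold (log2 −1.85, SE 0.0484, adjusted p = 6.51e-13, edgeR). MCM3, part of the helicase that opens DNA for replication, went from 186, 184 and 205 CPM to 57.9, 53.9 and 64.7 CPM. HELLS, a chromatin remodeller of dividing cells, went from 122, 132 and 120 CPM to 33.5, 38.6 and 33.6 CPM. In none of these genes did the groups overlap. The others of the 20 lowest genes with at least 5 CPM that belong to these processes were LRRCC1 (a centrosomal protein), WDHD1 (a replisome protein), DLGAP5 (a spindle protein), NEIL3 (a DNA glycosylase), VRK1 (a chromatin kinase) and NCAPG (a condensin subunit), at log2 −2.09 to −1.56.

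The remaining 10 of these 20 genes had other roles. KRIT1, a scaffold protein of endothelial junctions, fell 3.81-fold, from 101.1, 105 and 91.6 CPM to 24.7, 25.6 and 27.7 CPM. CMAS, which activates sialic acid for glycosylation, fell 3.53-fold, from 59.6, 62.5 and 67.0 CPM to 17.6, 18.03 and 17.9 CPM. For both genes the groups were wide apart, with adjusted p of 9.79e-12 and 1.73e-11 (edgeR). TBCD, a tubulin folding cofactor, went from 64.3 ± 2.75 to 21.3 ± 1.27 CPM (SD, n = 3), and its log2 fold change of −1.60 came out at −2.30 at the far end of the alternatives. TARBP1 and TRMT1L (tRNA modification), SYNE2 (a nuclear envelope protein), TDRD7 (an RNA granule protein) and CYP4V2 (a fatty acid hydroxylase) lay between log2 −1.95 and −1.61.

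Among called genes ITGB1, the beta-1 integrin subunit, lost most CPM. It was at 2088, 2184 and 2137 CPM in sgAAVS1 and at 811, 861 and 918 CPM in sgERH, 2.47-fold lower. CAPN2 (a calpain protease) went from 1019 ± 25.6 to 463 ± 3.14 CPM, and PRKDC (the DNA-dependent protein kinase) from 1003 ± 29.8 to 486 ± 22.1 CPM. SMC4, the ATPase common to both condensins, went from 469 ± 33.2 to 166 ± 5.85 CPM (SD, n = 3). The other 6 of the 10 largest losses were SRSF3, MCM7, MKI67, ERCC1, MAP1LC3C and MCM4. MKI67, the proliferation antigen Ki-67, sat at the threshold (575 ± 39.9 to 286 ± 23.97 CPM, log2 −1.01) and lost its call in 8 of 13 alternatives, SRSF3 in 5.

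**Figure D2:**
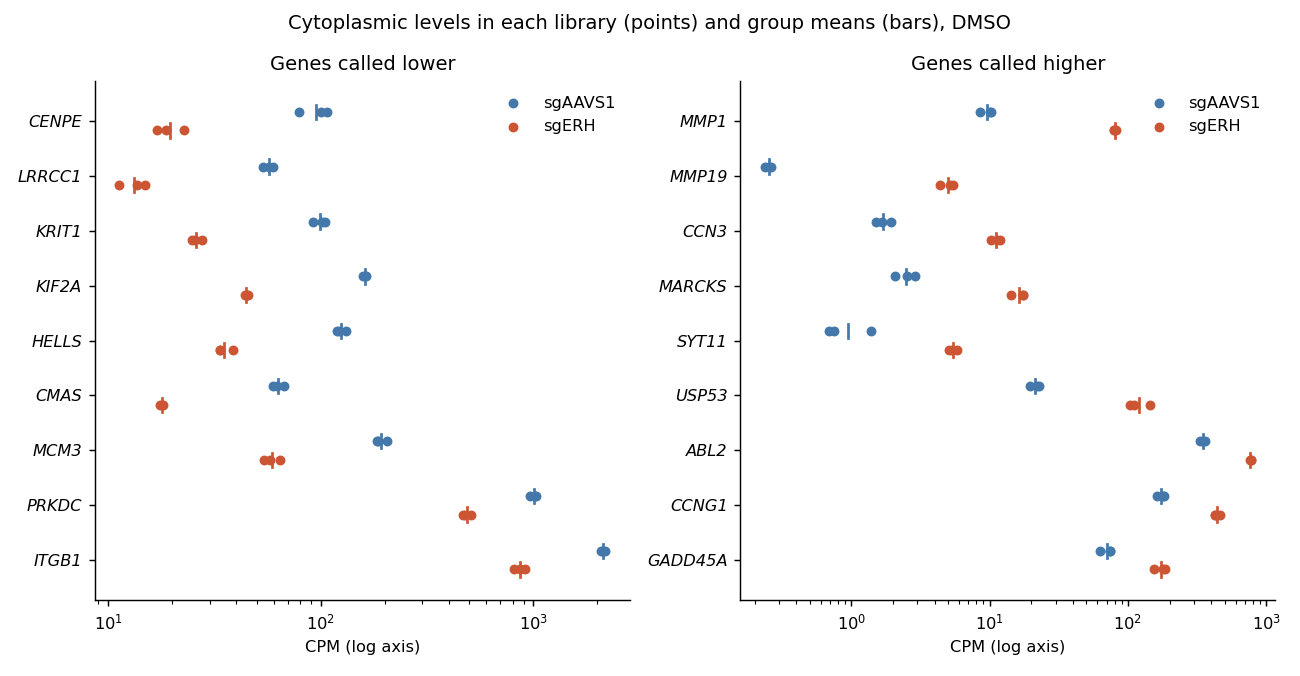
Points give the CPM (log axis) of 9 genes called lower and 9 called higher in each sgAAVS1 and sgERH library, and short bars the group means. The 3 libraries of a group lie close together, as for KIF2A at 158 to 163 against 43.9 to 45.3 CPM, and the groups overlap for none of the 18 genes.

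Secreted proteases and matrix proteins stood among the genes called higher. MMP1, a collagenase, was at 10.0, 10.3 and 8.45 CPM in sgAAVS1 and at 79.4, 79.2 and 81.8 CPM in sgERH (8.34-fold, log2 3.06, SE 0.0895, adjusted p = 1.63e-12, edgeR). MMP10, a stromelysin, rose from 2.83, 3.58 and 3.84 CPM to 17.4, 17.2 and 19.5 CPM. MMP19, another metalloproteinase, had the largest fold change of these, 19.6-fold, at lower levels (0.264, 0.255 and 0.236 CPM against 5.21, 5.41 and 4.36 CPM). CCN3, a matricellular protein, rose 6.56-fold (1.66, 1.501 and 1.93 CPM to 10.3, 11.8 and 11.2 CPM). MARCKS, an actin-regulating substrate of protein kinase C, rose 6.55-fold (2.88, 2.08 and 2.54 CPM to 14.2, 17.5 and 17.4 CPM).

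Signalling genes with more than a few CPM also rose. PTPN22, a phosphatase best known from lymphocytes, was at 5.30, 6.84 and 5.67 CPM in sgAAVS1 and 37.1, 37.0 and 37.5 CPM in sgERH. USP53, a protein of tight junctions, was at 19.5, 21.9 and 22.9 CPM against 104, 110 and 145 CPM, and its log2 fold change of 2.48 was 1.53 at the low end of the alternatives. The largest gain in CPM was that of ABL2, a cytoskeletal tyrosine kinase (346 ± 14.9 to 769 ± 8.28 CPM), followed by CCNG1, a cyclin induced by p53 (175 ± 10.2 to 439 ± 21.1 CPM). EFNB2 (an ephrin ligand), HMOX1 (haem oxygenase), RIPK2 (an adaptor kinase of innate immunity), CHD2 (a chromatin remodeller), ENTPD7 (a nucleotide-hydrolysing enzyme) and the non-coding RNAs GAS5 and NEAT1 gained between 2.08-fold and 2.95-fold. The mitochondrially encoded MT-ND3 completes the 10 largest gains, at 120, 167 and 169 CPM against 348, 412 and 324 CPM.

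Long non-coding RNAs were among the 20 highest, and 4 of them differed between fractions. LINC00342 stood at 2.85, 2.99 and 2.53 CPM in sgAAVS1 and 27.3, 28.1 and 26.5 CPM in sgERH, APPAT at 5.02, 3.77 and 3.00 against 28.5, 29.1 and 31.5 CPM, and MIR193BHG at 0.451, 0.665 and 1.02 against 5.31, 4.73 and 6.36 CPM. In the nucleus the same contrast gave log2 −0.42, −0.02 and 0.67, so the difference between fractions was −3.68, −2.92 and −2.27 (adjusted p = 6.44e-14, 1.25e-07 and 1.37e-05, edgeR interaction test over all genes). PURPL, at log2 2.45 in the cytoplasm and 0.83 in the nucleus, differed by −1.61 (adjusted p = 9.99e-07, same test). Across all genes 5.73% were called in that test, but these 4 were picked by their cytoplasmic change, which is a term of the difference. Of the 20 highest, 2 are uncertain. RPLP0P2 is a pseudogene close in sequence to RPLP0, and RPL36A-HNRNPH2 is a joined transcript that shares its exons with both parent genes and ranged from 4.02 to 66.2 CPM within sgERH. The 20 also held MYCT1, MMP3, GREB1, SYT11, AOC2, STXBP6, PURPL and MC1R, at log2 2.45 to 4.04.

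Between the groups 5 genes went from no count in any library of one group to at least 1 CPM in the other. CRYBB2P1 had 155, 52 and 263 counts and ZRSR2P1 119, 50 and 108 counts in sgERH, at least 207-fold and 122-fold above a floor of 3 counts over the sgAAVS1 libraries. Both are annotated pseudogenes, whose reads may belong to related genes, so their counts are uncertain. ENSG00000256514 (161, 38 and 154 counts) and ENSG00000283782 (40, 78 and 251 counts) are gene models without a symbol. The one lost was the long non-coding model ENSG00000291262, with 195, 0 and 103 counts in sgAAVS1 and none in sgERH. In each of these 5 the libraries of one group differed by 2-fold or more.

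Gene classes differed in how often they were called. Long non-coding RNAs were called higher in 22.6% of 2758 and lower in 1.78%, with a median log2 fold change of 0.58, against 5.78% and 2.30% and a median of −0.04 for 12497 protein-coding genes. The median over all tested genes was 0.04. Among protein-coding genes those without introns were called higher in 15.4% and lower in 1.63%. The share called lower went from 1.02% with 1 or 2 introns through 1.26% (3 to 5), 2.10% (6 to 9), 2.59% (10 to 14) and 3.54% (15 to 24) to 4.57% with 25 or more. The median level in sgAAVS1 also rose over these classes, from 6.61 CPM without introns to 50.1 CPM with 25 or more, and its part in the trend was not tested. Protein-coding genes called lower had a median of 12 introns and 49.2 kb of gene length, against 8 introns and 33.3 kb for uncalled genes and 7 introns and 25.8 kb for those called higher, while the median transcript lengths were alike (3340, 3314 and 3263 bases). By chromosome the share called lower ran from 1.26% on chromosome 19 to 3.58% on chromosome 4, and the share called higher from 7.04% on X to 11.98% on chromosome 7.

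Genes called higher had a higher median ratio of nuclear to cytoplasmic RNA in control cells treated with CHX. In the CHX-treated sgAAVS1 libraries, which are outside the comparison, the median log2 ratio of nuclear to cytoplasmic CPM (each plus 0.5) was 0.63 for genes called higher, −0.09 for those called lower and −0.13 for the rest. Within protein-coding genes the medians were 0.57, −0.12 and −0.23, and within long non-coding RNAs 0.57, 0.36 and 0.24. The genes were not matched for level, and those called higher had a median of 0.291 CPM in the DMSO sgAAVS1 libraries, below the 0.5 added. The part of nuclear RNA carried over into the cytoplasmic fraction was not tested.

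The lists of genes by function gave counts that are read against 9.30% higher and 2.16% lower over all genes. Over protein-coding genes these shares were 5.78% and 2.30%. Of 36 lists, 11 held genes called lower and none higher, 11 the reverse, 6 both and 8 neither. Of 35 kinesins 7 were called lower and none higher (CENPE, KIF2A, KIF15, KIF11, KIF18B, KIF20B and KIF22), with a median log2 fold change of −0.46. KIF15, a spindle motor, went from 60.5 ± 4.70 to 22.5 ± 0.528 CPM (SD, n = 3). Of 57 kinetochore and spindle checkpoint genes, all had a log2 fold change below 0 and 14 were called lower, such as BUB1B, a kinase of the spindle checkpoint (140 ± 11.1 to 50.1 ± 0.260 CPM). That count was 7 without sgAAVS1 replicate 1, 9 without sgAAVS1 replicate 2 and 8 without the mitochondrially encoded genes. Of 29 cohesin and condensin genes 4 were called lower, 3 of them condensin subunits (SMC4, NCAPG and NCAPG2) and 1 a cohesin regulator (PDS5B). Among 66 centrosome genes LRRCC1, HAUS7, POC1A and TUBGCP5 were called lower and CEP164, a protein of the mature centriole, higher (12.8 ± 1.10 to 33.1 ± 0.699 CPM).

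The genome maintenance lists had medians below 0. Of 62 replication fork genes 61 had a log2 fold change below 0 and 20 were called lower (median −0.83), including all 6 subunits of the MCM helicase, the ligase LIG1 (86.2 ± 2.65 to 33.9 ± 2.40 CPM) and the nucleotide enzyme TK1. Of 74 DNA damage genes 63 had a log2 fold change below 0 and 11 above, and 11 were called lower (median −0.44), among them RAD50 at 58.7, 58.5 and 57.8 CPM in sgAAVS1 and 22.1, 21.8 and 21.8 CPM in sgERH. Of 39 cyclin, E2F and RB genes only the transcription factor MYBL2 was called, lower, a count near the share over all genes. Their median was −0.44, with 32 below 0 and 7 above.

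RNA processing genes were slightly lower and rarely called. None of 61 core spliceosome genes was called and 58 had a log2 fold change below 0 (median −0.41). Among 49 SR and hnRNP genes SRSF2, SRSF3 and SRSF7 were called lower, each near the threshold (log2 −1.03, −1.02 and −1.08), and MBNL2, a regulator of alternative splicing, higher. Leaving out sgAAVS1 replicate 2 left 1 gene of the list called lower, as did leaving out replicate 3 of either group. CLK1, a kinase of SR proteins, was lower (55.6, 59.4 and 54.6 CPM against 23.8, 24.3 and 24.1 CPM). Of 36 exon-junction and export genes THOC2, a scaffold of the TREX export complex, was called lower (116 ± 9.74 to 54.4 ± 2.23 CPM), and of 31 nuclear pore genes NUP210 and NUP88, the latter losing its call in 8 of 13 alternatives. Of 21 reported partners of ERH, with ERH among them, no other gene was called, and none of 20 NMD factors was.

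Housekeeping lists were mostly lower in relative level, with few calls. The summed level of all uncalled genes was also lower, at 1087600 CPM in sgAAVS1 and 968920 CPM in sgERH. The median log2 fold change over protein-coding genes was −0.04, and the share of all genes below 0 is not given. These limits also hold for the counts below 0 in the lists above. All 31 proteasome genes had a log2 fold change below 0 (median −0.46) and none was called, and 35 of 37 nuclear-encoded complex I genes (median −0.35), 75 of 78 cytosolic ribosomal protein genes (median −0.29) and 18 of 23 tRNA synthetase genes (median −0.21) were below 0 with no call. Of 20 glycolysis genes 18 were below 0 with the lowest median of this group (−0.68), and their summed level was 20271 CPM in sgAAVS1 and 12100 CPM in sgERH. PFKL, the liver-type phosphofructokinase, was called lower (77.0 ± 5.05 to 30.2 ± 2.25 CPM), PDK1 lower at the threshold and the glucose transporter SLC2A3 higher. The mitochondrially encoded mRNAs went the other way, with all 13 above 0, a median of 0.56 and 1 call. Among 40 chaperones 1 was called (HSPA4L), and among 26 cholesterol synthesis and 41 phosphoinositide genes none.

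Lists of secreted and stress-response genes held the calls for higher levels. Of 13 matrix metalloproteinase and inhibitor genes tested 5 were called higher and none lower (median 0.63). Of 22 chemokine and NF-kB genes 9 were called higher (median 0.63), with the cytokine IL11 at 19.4, 19.5 and 19.2 CPM against 69.8, 75.5 and 72.0 CPM and the neutrophil chemokine CXCL8 at 1.60 ± 0.369 against 6.90 ± 0.859 CPM. Of 37 p53 targets 9 were called higher (median 0.59), such as TP53INP1 at 11.04 ± 1.37 against 32.9 ± 2.30 CPM. Of 34 ATF4 and unfolded protein genes 6 were called higher, led by the transcription factor ATF3 (2.68 ± 0.394 to 10.8 ± 1.42 CPM), and 1 lower, PHGDH. Of 54 interferon-stimulated genes 13 were called higher (median 0.38), and the 3 with the largest change were scarce (GBP1 went from 0.443 ± 0.122 to 2.86 ± 0.286 CPM, and APOL1 and BATF2 reached 0.583 and 1.19 CPM), while of 34 receptor, JAK and STAT genes JAK2 alone was called, lower. HLA-E alone was called among 21 genes of MHC class I presentation, at 68.8, 66.6 and 65.9 CPM against 143, 139 and 136 CPM.

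Smaller groups also held genes called higher. Of 23 snoRNA host transcripts 5 rose (median 0.40), with GAS5 from 222 ± 2.85 to 467 ± 31.6 CPM and SNHG7 from 53.02, 55.2 and 50.8 CPM to 135, 143 and 116 CPM. These are spliced non-coding RNAs that carry snoRNAs in their introns. Over all long non-coding RNAs 22.6% were called higher with a median of 0.58, so the snoRNA hosts rose no more than that class. Of 14 tested RNAs in a list of well-known long non-coding RNAs, not all of them nuclear, 5 rose in the cytoplasm. Among them HOTAIRM1 was at 7.22 ± 0.719 against 24.1 ± 3.63 CPM. The median of these 14 RNAs, 0.57, was close to that of all long non-coding RNAs. Of 34 lysosome and autophagy genes the sialidase NEU1, GABARAPL1 and WIPI1 were called higher, NEU1 from 27.2, 27.7 and 26.4 CPM to 79.3, 81.0 and 73.2 CPM. These 3 of 34 lie between the 5.78% called higher over protein-coding genes and the 9.30% over all genes. Of 23 growth-arrest genes 4 were called higher, of which the transcription factor KLF6 went from 44.8 ± 2.71 to 107 ± 3.33 CPM, and 2 of 15 splicing kinases (DYRK3 and DYRK1B). Of 16 adhesion genes 3 were called higher, EPCAM and TNC among them, and ITGB1 was called lower, and of 6 keratins KRT15 and KRT80 were higher, both under 4 CPM, with a list median of 0.75 that became −0.03 when the 6 libraries were fitted alone.

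Introns were compared by the ratio of intron depth to spliced reads, and the IR ratio is the depth divided by the depth plus the spliced reads. Of 41336 introns tested, 1.89% (780) were called more retained and 0.501% (207) less retained in sgERH. The median log2 change over all tested introns was 0.49 and 69.1% of introns were above 0. With that median subtracted from each log2 change, 614 were called more and 266 less retained. The adjusted p-values stayed those of the test against 0, so these introns were not tested against the shift itself. The 780 introns lay in 469 genes and formed 610 separate regions, since alternative ends of one intron are listed separately. Their median IR ratio was 0.0253 in sgAAVS1 and 0.120 in sgERH, so most of the RNA of these genes was still spliced at the site. In sgERH 453 of the 780 reached a mean IR ratio of 0.1 or more, 158 reached 0.25 and 42 reached 0.5. Clean introns made up 712 of the 780 but 63 of the 207 less retained introns, although introns overlapping known exons were 7.56% of those tested.

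BPTF intron 9 was not retained in any sgAAVS1 library (IR ratio 0, 0 and 0, with 352, 329 and 242 spliced reads) and had IR ratios of 0.196, 0.167 and 0.210 in sgERH (adjusted p = 7.75e-05, edgeR). USP9X intron 19, of 234 bases, went from 0, 0 and 0 to 0.0851, 0.0993 and 0.106, beside 527 to 757 spliced reads in sgAAVS1 and 217 to 318 in sgERH. ASPM intron 14, of 86 bases, went from 0, 0 and 0 to 0.297, 0.541 and 0.532. With DMSO these 3 introns thus had no measurable depth in the control cytoplasm and some in each sgERH library. With CHX the mean cytoplasmic IR ratios in sgAAVS1 and sgERH were 0.00792 and 0.167 for BPTF and 0.0233 and 0.355 for ASPM. For USP9X they were 0.0169 and 0.0255, a much smaller difference than with DMSO. In the DMSO libraries TRPM7 intron 19 went from 0, 0.00242 and 0 to 0.297, 0.312 and 0.295, and CHD1 intron 12 from 0, 0 and 0 to 0.0532, 0.0815 and 0.0726. The level of BPTF, USP9X, ASPM and TRPM7 mRNA was not called, whereas CHD1 was called lower (log2 −1.27). For BPTF, USP9X and TRPM7 the intron tables carried a quality warning in 2 or 3 of the sgERH libraries, for ASPM and CHD1 in none.

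Introns of genes called lower were among the 15 with the largest increase. KIF20B intron 14 (a kinesin) reached 0.0674, 0.104 and 0.153 in sgERH, NR2C1 intron 8 (a nuclear receptor) 0.119, 0.110 and 0.126, HELLS intron 11 0.0589, 0.0776 and 0.0503, and C5orf34 intron 5 0.140, 0.213 and 0.226, from at most 0.00118 in any sgAAVS1 library. CENPE intron 27 was uneven, with 0.186, 0.0186 and 0.2496, as was HSPA4L intron 9 with 0.0637, 0.0119 and 0.0781. The second sgERH library was the low one in both. LRRCC1 intron 16 reached 0.0577 to 0.0863 and an intron of RAD50 0.0999 to 0.159, both from 0. The introns of KIF20B, NR2C1 and RAD50 carried a quality warning in all 3 sgERH libraries and that of C5orf34 in 2, so these are not among the introns called without warnings. The last of the 15 is assigned to ENSG00000283782, a model that overlaps RAD50, and is uncertain.

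PIK3C2A, an intron-rich gene whose level missed the call (142 ± 7.15 to 84.5 ± 2.78 CPM, log2 −0.75), held 5 called introns. Introns 13, 14, 15 and 16 follow each other, and each had an IR ratio of at most 0.00216 in sgAAVS1. In sgERH they lay at 0.0980 to 0.114, 0.0654 to 0.117, 0.0448 to 0.0637 and 0.0564 to 0.0977. Intron 4 was also called (means of 0.0129 and 0.0765). No intron of JAK2 was called in the cytoplasm.

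**Figure D3:**
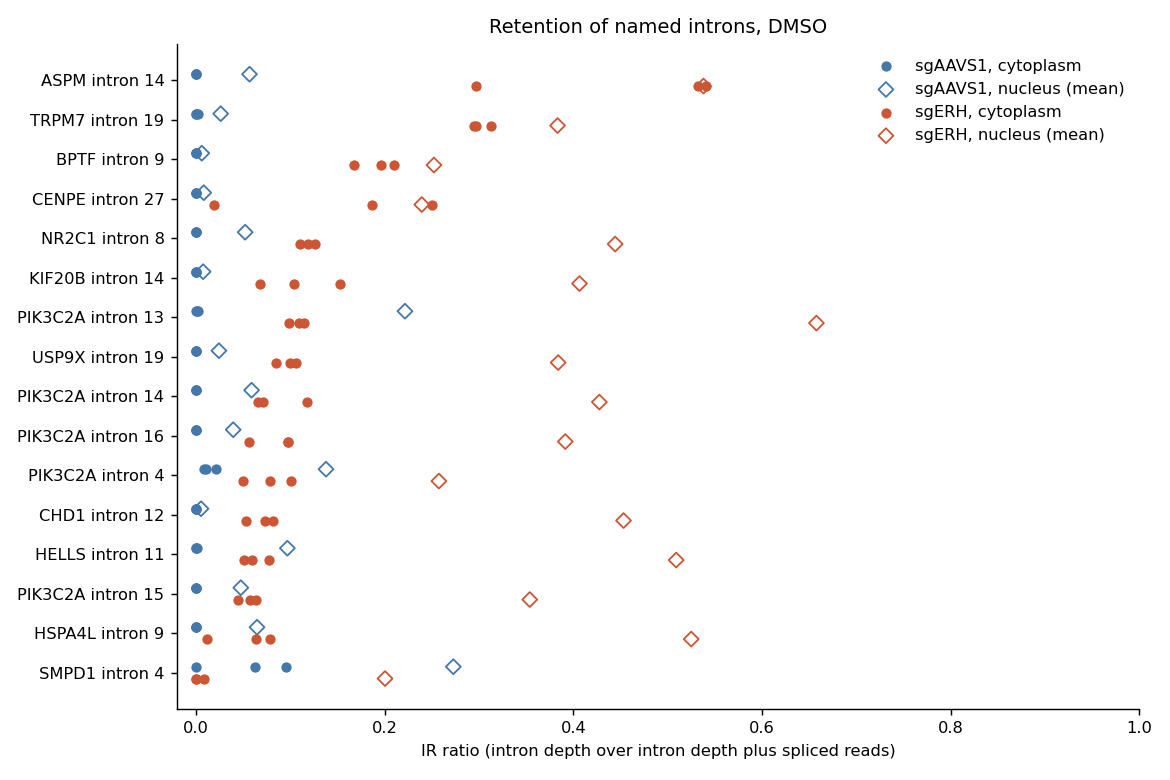
Filled points give the IR ratio of named introns in each cytoplasmic library and open diamonds the mean of the 3 nuclear libraries with DMSO. In all introns shown except SMPD1 intron 4 the sgERH libraries lie above the sgAAVS1 libraries, as for TRPM7 intron 19 at 0.295 to 0.312 against 0 to 0.00242, and the nuclear means of sgERH lie above those of sgAAVS1 too.

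Several genes held more than 1 called intron. TTN, the giant muscle protein, held 9 of 38 tested, spread between introns 50 and 362, ASPM 7, and ATG2B (autophagy), HELB (a helicase), PIK3C2A and RANBP2 (a nuclear pore protein) 5 each. TASOR2 held 13 called introns, which formed 4 regions, and KLHL22, NAB1 and PSME3IP1 held 6 each, which formed 1 region each. Among called introns with a number in the canonical transcript and a tested neighbour, 48.1% (175 of 364) had a called neighbour, while 2.51% of 18153 such tested introns had one. Alternative ends of one intron were not counted as neighbours. Depth over one retained intron and its neighbours comes partly from the same RNA molecules, so these are not independent events.

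The 5 largest decreases rest on low intron depth or few spliced reads. In SMPD1, PTPN18 and RANGAP1 the intron depth in sgAAVS1 was at most 8, beside 32 to 76 spliced reads. SMPD1 intron 4 (acid sphingomyelinase) went from 0.0624, 0.0952 and 0 to 0, 0 and 0.00877, with groups that overlap, and its call was lost in most alternatives. PTPN18 intron 8 went from 0.125, 0.127 and 0.0939 to 0.0428, 0 and 0, and an intron of RANGAP1 from 0.145, 0.127 and 0.120 to 0.0110, 0.0372 and 0.0195. In LTB4R, a leukotriene receptor gene called higher, the IR ratio went from 0.936, 0.942 and 1 to 0.506, 0.629 and 0.636 with 0 or 1 spliced read in each sgAAVS1 library. The BTN3A3 intron had 2 to 9 spliced reads in sgAAVS1, so the sgAAVS1 ratios of both rest on few spliced reads.

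The introns called more retained had shared features that the call did not use. Their median G+C content was 39.4%, against 45.7% for all clean introns tested, and their median length 2023 against 1328 bases. By G+C class the share called more retained fell from 4.89% under 30% through 3.55%, 2.73%, 1.68%, 1.21% and 1.17% to 1.01% at 60% or more. The median log2 change of all tested introns fell with them, from 1.16 to 0.09. They lay in genes with a median of 16 introns, against 11, and were the last intron of the transcript in 8.13%, against 16.4%, while the clean less retained introns were last introns in 40%. The 17 bases from 20 to 4 bases before the intron's end held a median of 70.6% pyrimidines, against 76.5%. GT and AG ended 99.0% of them and 98.3% of all. Sites with few spliced reads have less precise ratios, and the median number of spliced reads in sgAAVS1 was 168 for introns called more retained against 443 for all tested.

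The same introns were read in libraries outside the comparison. In the DMSO nuclei 500 of the 712 clean introns called more retained (70.2%) had a higher mean IR ratio in sgERH, against 24.3% of all clean introns tested, and the medians of the 712 were 0.394 in sgAAVS1 and 0.494 in sgERH nuclei. In the CHX cytoplasm 671 of the 712 (94.2%) were higher in sgERH, against 63.0% of all. Of the 63 clean introns called less retained, 3 were higher in sgERH nuclei and 15 in the CHX cytoplasm.

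Genes called lower held retained introns more often. Among genes with a tested intron, 20.3% of those called lower (44 of 217) had an intron called more retained in the cytoplasm, against 4.77% of uncalled genes (415 of 8693) and 3.56% of genes called higher (8 of 225). The median number of tested introns was 4 in genes called lower and in uncalled genes. The spliced reads that set the IR ratio also count towards the gene level in the same libraries. A fall in spliced reads over an unchanged intron depth raises the ratio, so the association is partly built in. Its size apart from this was not tested. Introns called less retained were held by 4.89% of genes called higher, 1.85% of uncalled genes and 1.38% of genes called lower. The median log2 fold change of the 467 tested genes with an intron called more retained was −0.24, and 318 of them were below 0. It was −0.097 for genes with tested introns of which none was called more retained. With 44 of 217, most genes called lower had no intron called more retained. Of the 20 lowest genes 10 had a called cytoplasmic intron, among them CENPE, LRRCC1, KRIT1, HELLS, TRMT1L, TDRD7, TBCD and NCAPG.

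The nuclear libraries were set beside the cytoplasmic levels, gene by gene. An intron was counted as higher in sgERH nuclei when its IR ratio rose by at least 0.1 and the groups did not overlap. This held for 1.30% of 127927 introns with enough reads, and the opposite for 5.72%. Genes with no such intron were called lower in the cytoplasm in 1.63% (of 9363 genes), those with 1 in 4.67% (of 492), with 2 in 10.1% (of 199), with 3 or 4 in 18.4% (of 114) and with 5 or more in 23.8% (of 63). The medians of the cytoplasmic log2 fold change were −0.08, −0.13, −0.21, −0.40 and −0.59. Genes with more introns have more chances to be counted, and within genes of 1 to 9, 10 to 19 and 20 or more counted introns the shares called lower were 1.29, 1.84 and 2.31% without and 6.59, 5.88 and 13.0% with a higher nuclear intron. In genes of 1 to 9 counted introns the share called higher was also larger with such an intron (6.59% against 3.61%), and the median log2 fold changes were −0.01 and −0.04. Of the 20 lowest genes 10 had one, CENPE and NCAPG with 8 each, and among others WDHD1, CMAS, DLGAP5, MCM3, VRK1, NEIL3, SYNE2 and TBCD had none. CYP4V2 had no nuclear intron with enough reads.

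**Figure D4:**
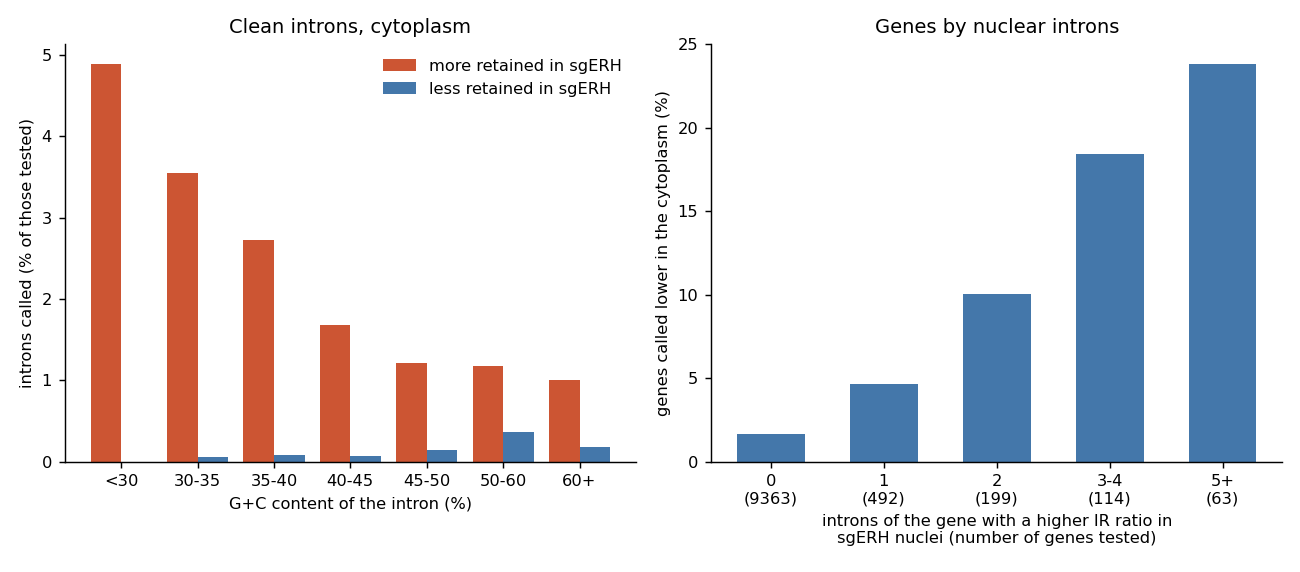
The left bars give the percentage of tested clean introns called more or less retained in the cytoplasm by class of intron G+C content, falling from 4.89% to 1.01% for more retained introns. The right bars give the percentage of genes called lower in the cytoplasm by the number of their introns with a higher IR ratio in sgERH nuclei, rising from 1.63% to 23.8%, with the number of genes in brackets.

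Isoforms were compared by each transcript's share of its gene's TPM (a level per transcript length). Of 60690 transcripts in 9226 genes, 0.526% (319, in 299 genes) were called for a share that changed by at least 10 percentage points, 244 up and 75 down in sgERH. Of the 319, 125 had an estimated share of 0 in every sgAAVS1 library and 36 in every sgERH library. Of those called, transcripts annotated as NMD substrates went up in 35 of 44, those with no defined coding sequence in 38 of 42, those with a retained intron in 25 of 29, and protein-coding ones in 142 of 199. Over all tested transcripts the share went up in 59.9, 65.9, 64.4 and 47.4% of these classes. Of 30 called canonical transcripts 23 went down. No share over all tested canonical transcripts stands beside this count, so it is not read as a general loss of canonical forms. Of the 299 genes, 11 were called higher and 12 lower in level. These were 8.03% and 6.15% of the 137 and 195 tested genes of those kinds, against 3.10% of uncalled genes. The assignment of reads to overlapping transcripts is an estimate, and its error is not part of these tests.

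RAD17, which loads the checkpoint clamp at damaged DNA, changed isoform without a change in level (40.9 and 42.5 CPM). RAD17-204 had a share of 64.6, 62.3 and 59.3% in sgAAVS1 and 3.31, 4.70 and 6.66% in sgERH, and RAD17-206 went from 6.39, 0 and 9.05% to 60.0, 54.1 and 50.6%. Both are protein-coding, with 18 and 16 exons. LARP7, which stabilises the 7SK RNA, lost its canonical transcript and gained an NMD substrate. LARP7-201 went from 49.8, 54.2 and 58.8% to 7.50, 0 and 0% (adjusted p = 4.31e-12, edgeR), and LARP7-221, annotated for NMD, from 1.64, 1.42 and 1.40% to 39.3, 37.4 and 37.2%. The gene's level was 74.6 CPM in sgAAVS1 and 38.3 CPM in sgERH, which missed the call (log2 −0.96).

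VIRMA, a subunit of the complex that writes N6-methyladenosine into mRNA, went from its canonical form to a shorter one. VIRMA-201, of 24 exons and 6478 bases, held 74.5, 70.5 and 76.5% of the TPM in sgAAVS1 and 26.4, 26.9 and 25.1% in sgERH. VIRMA-202, of 13 exons and 3924 bases, went from 22.8, 25.1 and 20.5% to 65.7, 66.7 and 68.2%. The gene level went from 139 to 93.7 CPM and was not called. FZD3, a Wnt receptor, had no TPM on a 2-exon, 580-base transcript in sgAAVS1 and 70.3, 64.7 and 76.8% on it in sgERH, while its count-based level was 28.02 and 23.7 CPM. A short transcript takes a large TPM share from few reads.

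Other switches went in both directions. DCUN1D2, a regulator of cullin ligases called higher (17.4 to 35.4 CPM), moved away from its NMD transcript DCUN1D2-202 (62.0, 58.5 and 48.9% to 11.3, 13.8 and 13.2%) and towards its canonical DCUN1D2-208 (7.67 ± 0.255 to 44.96 ± 4.30%, SD, n = 3). HELB moved towards an NMD transcript, HELB-202 (0, 9.76 and 4.27% to 42.2, 61.3 and 41.5%). ZNF432, a zinc finger gene called higher, had ZNF432-202 at 0, 7.84 and 29.9% in sgAAVS1 and 58.2, 70.0 and 70.2% in sgERH. AASDH-201 and BACE1-202 fell to 0 in all 3 sgERH libraries from 38.6 to 62.0% and 32.6 to 51.5%, and CD109-205 rose from 0 to 38.7 to 49.3%. These 3 genes had under 15 CPM in each group. The other 2 of the 12 largest share changes are in a pseudogene of TPM3 and in a gene with a near-identical copy, where reads cannot be assigned with certainty, and their values are not given.

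**Figure D5:**
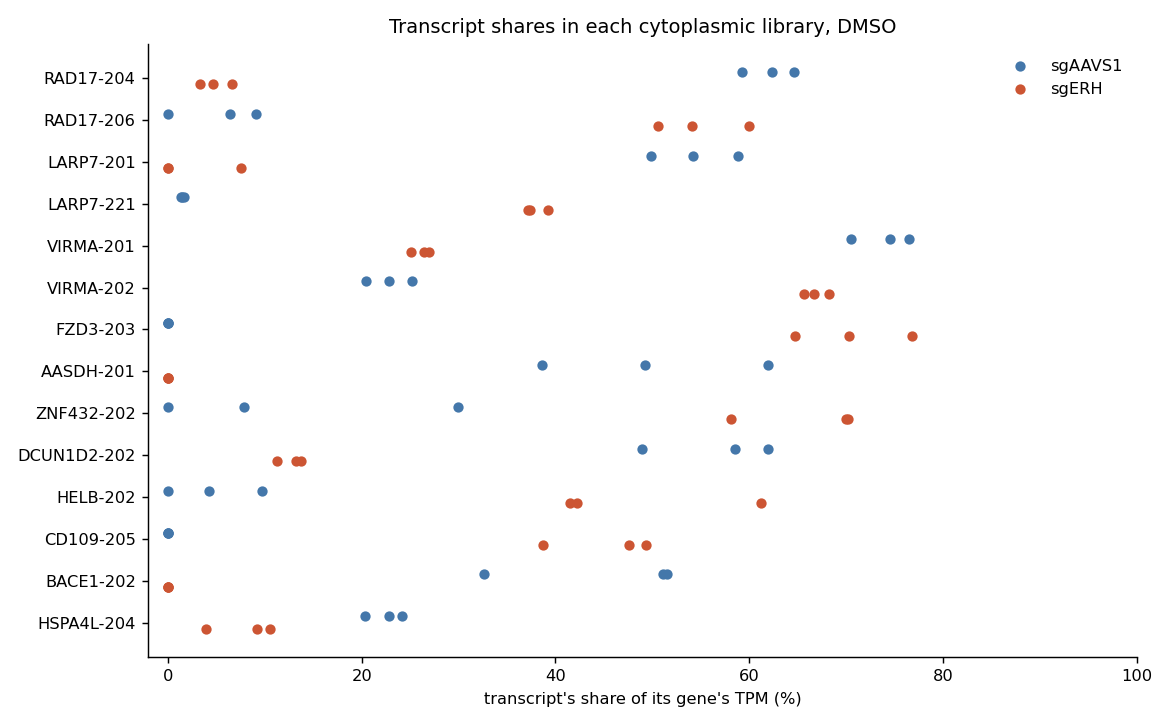
Points give the percentage of the gene's TPM on each transcript in the 3 sgAAVS1 and 3 sgERH cytoplasmic libraries. The groups are separate for every transcript shown, as for VIRMA-201 at 70.5 to 76.5% in sgAAVS1 and 25.1 to 26.9% in sgERH.

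Of the genes central to the study and CENPE, HSPA4L had the single called transcript, HSPA4L-204, with 24.2, 20.3 and 22.8% against 10.6, 3.95 and 9.22% (adjusted p = 0.00492, edgeR). Its canonical HSPA4L-201 had 28.5, 33.3 and 30.5% against 41.9, 56.4 and 42.2%, groups that do not overlap, but was not called (adjusted p = 1, edgeR). GADD45A-202, PIK3C2A-206 and the canonical ERH transcript had 93.4 and 94.9%, 67.9 and 56.0%, and 99.9 and 99.6% of their gene's TPM in sgAAVS1 and sgERH, of which the first 2 were tested and not called. The canonical ERH transcript was not tested, nor was JAK2-201, which held 88.5 to 100% in sgAAVS1 and 100% in each sgERH library. CENPE-201, the canonical form, had 50.1, 54.4 and 55.2% against 29.1, 42.998 and 46.3% and was not called (adjusted p = 1, edgeR). The short CENPE-205 had 4.44, 3.22 and 0% against 33.0, 12.6 and 14.9%, which did not pass (adjusted p = 0.347, edgeR).

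The same direction was seen in the summed classes of each library. Transcripts annotated with a retained intron took 3.17, 3.26 and 3.27% of TPM in sgAAVS1 and 3.33, 3.29 and 3.65% in sgERH, and NMD transcripts 2.56, 2.49 and 2.48% against 2.66, 2.58 and 2.81%. The mean differences of 0.191 and 0.172 points became 0.512 and 0.369 points when mitochondrially encoded and ribosomal protein genes were left out, and 0.0770 and 0.108 points without sgERH replicate 3. Long non-coding RNA took 1.13, 1.19 and 1.21% against 1.69, 1.77 and 1.63%. Reads across exon-intron boundaries per 100 spliced reads were 7.12, 7.20 and 7.25 against 7.40, 7.51 and 7.31. Each of these 4 measures was higher in all 3 sgERH libraries, and each exact two-sided permutation test gave p = 0.1, the smallest value that 3 against 3 libraries allow. Introns with an IR ratio of at least 0.05 were 3.34 to 3.84% of those with enough reads in sgAAVS1 and 4.62 to 4.92% in sgERH.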

How the data were processed

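The authors made the deposited files from paired-end reads of polyadenylated RNA with the nf-core/rnaseq pipeline (fastp, SortMeRNA, STAR, salmon; GRCh38) and IRFinder-S; whether salmon counting used the strand is not given in the sources used here. They deposited expected counts per transcript, TPM, effective transcript lengths in bases (a score here), and, per library and intron, intron depth (a coverage signal), counts of spliced and boundary reads, and the IR ratio (a fraction).

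Expected counts were summed per gene and rounded. Genes, introns and transcripts were tested with edgeR 4.0.16 in R 4.3.3 (quasi-likelihood, Benjamini-Hochberg adjustment over all features) on the 12 cytoplasmic libraries of the series. The contrast was that of the guides in DMSO. Genes and transcripts were scaled by the trimmed mean of M-values, and the intron test used an intercept per library without that scaling. Genes passed filterByExpr (minimum count 10). Introns needed a mean of 10 for depth plus spliced reads and a mean depth of 1 in a group. Calls required an adjusted p of at most 0.05, a log2 change of 1 and, for introns, a mean IR ratio of 0.05. The intron test is the interaction of guide and read type. Transcript shares were tested with diffSpliceDGE in genes of at least 5 CPM, with a change of at least 10 points. Splice sites were read from GRCh38. Interactions with fraction used the 12 DMSO libraries. The warnings of the intron tables served for 1 alternative. Scripts were tested on simulated data. No pair of libraries was identical (0 pairs). Some genes these rules name are not reported here.

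Named genes were ERH, the study genes, the 20 called genes at each end by fold change (symbol given, 5 CPM), the 10 largest gains and losses, up to 3 called genes per list, and genes at 0 in one group; named transcripts were the 12 with the largest share change and those of the study genes; named introns were the 15 largest increases and 5 largest decreases (clean, 1 per gene), those of the study genes, and the genes with most. The other transcripts, exceptions in number and list members named beside a count were chosen after their values were seen. The members and lists were chosen with earlier results of these data known.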

Additional observations from a re-analysis of the deposited data

Results flagged for a closer look

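The interactions given here are those of the 10 highest and 10 lowest named genes and the study genes, of which 23 are reported. For 13 of them the effect of sgERH with DMSO differed between nucleus and cytoplasm by at least 1 on the log2 scale, by an edgeR interaction test adjusted over all genes. The difference (nucleus minus cytoplasm) was −3.68 for LINC00342, −2.92 for APPAT, −2.27 for MIR193BHG, −1.38 for MC1R and −1.13 for GADD45A, whose gain was thus larger in the cytoplasm. It was 1.16 for CMAS, 1.26 for KIF2A, 1.31 for HELLS, 1.32 for LRRCC1, 1.49 for KRIT1, 1.81 for HSPA4L, 1.87 for JAK2 and 1.96 for PIK3C2A. In the nucleus HSPA4L, JAK2 and PIK3C2A had log2 changes of 0.45, 0.32 and 1.19, while in the cytoplasm they had −1.34, −1.53 and −0.75. Each of these calls held without any single library and with the replicate number in the fit.

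Of all genes 5.73% were called in this test. Most of the named genes were chosen by an extreme cytoplasmic fold change with DMSO, which is itself a term of the difference. The choice favours a difference, so the share over all genes is no fair measure for them. The comparisons share the DMSO cytoplasm libraries.

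For 5 of the 23 genes the cytoplasmic effect differed between CHX and DMSO by the same rule, against 3.63% of all genes. The choice of genes favours a difference here too, because the cytoplasmic DMSO effect is again a term of it. The difference (CHX minus DMSO) was −1.49 for GADD45A and −1.22 for MC1R, and 1.10 for KRIT1 and 1.20 for CMAS. GADD45A changed by log2 1.30 with DMSO and −0.19 with CHX. The difference of −4.12 for RPL36A-HNRNPH2 rests on uneven values within sgERH. The calls of MC1R and RPL36A-HNRNPH2 were each lost in 1 of 13 alternatives.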

How the results depend on the processing

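Without a limit on the fold change 4582 genes were higher and 4633 lower. With DESeq2 431 introns were called more and 110 less retained, with boundary reads in place of depth 344 and 105, and without introns that carry a warning in 2 or more libraries (chosen after seeing the data) 267 and 105. An IR ratio of at least 0.1 left 453 more retained, and clean introns only 66 less retained. limma called 1617 transcripts, and a share change of at least 20 points left 124.

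Leaving out 1 library gave 1399 to 1635 genes higher, 294 to 359 lower, 519 to 689 introns more and 135 to 198 less retained, and 240 to 307 transcripts; 519 came without sgERH replicate 3 and 135 without sgERH replicate 1.

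Without any 1 library the library differences kept their direction, at 0.0770 to 0.258 points for retained-intron transcripts, 0.108 to 0.224 points for NMD transcripts and 0.164 to 0.265 for boundary reads. The interaction calls numbered 13 in each case for fraction and 4 to 6 for treatment.

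With the replicate block 1484 genes were higher and 346 lower, 700 introns more and 195 less retained, and 252 transcripts changed. The deviations of same-numbered libraries correlated at 0.0318, 0.0558 and 0.0607, each highest for its own number, against −0.0618 to 0.0027 for the others. All these values are small and do not settle whether the numbers pair the samples. The main fit did not pair them.

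Among named results, 41 of 1480 gene values, 36 of 348 intron values and 29 of 230 transcript values lost their call under some alternative. Differences that were not called changed sign. CENPE-202 changed by 4.65 points by share of expected counts, against −4.74 by TPM, and HSPA4L-202 by −3.89 points, against 0.265. Without 1 library HSPA4L-202 ran from −1.44 to 2.70 points. The causes were not tested. Depth limits mostly the scarce genes and the introns with few spliced reads.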
